A study of Mus musculus with 13 samples.

Results

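Spinster transporters and the enzymes that salvage lysophospholipids were followed in mouse kidney RNA. The 10 genes were chosen by symbol from the 35013 gene symbols of the deposited table: Spns1, Spns2 and Spns3, the phospholipase gene Pla2g15, the acyltransferase genes Lpcat1, Lpcat3, Lpcat4 and Lpgat1, the transporter gene Mfsd2a and the phosphodiesterase gene Gde1. All 10 passed the filter on low counts, which kept 16468 genes.

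The data cover 13 libraries of thiol-tagged, poly-A selected RNA from kidneys of female mice: 5 labelled WT, 4 labelled Spns1 KO and 4 labelled FeO. According to the methods, every mouse carried Megalin3'Cre-Ert, a tamoxifen-inducible Cre made from the megalin locus, together with one Uprt flox allele, and mice were given tamoxifen in parallel. Uprt (uracil phosphoribosyltransferase) lets cells in which Cre has acted build 4-thiouracil into new RNA. Spns1 KO mice were Spns1 flox/flox. WT and FeO mice were Spns1 flox/+ in the methods, whereas the labels give their genotype as Spns1 WT, so the controls may carry one recombined allele. FeO mice, the iron overload model, had been injected with 12 mg of iron (iron sucrose) a day for 3 days and were euthanized 1 week later, and the Spns1 KO and WT mice received no iron. Ages were not given in the sources used here. Because the methods speak of littermates without saying which libraries share a litter, the p-values measure the spread between these libraries.

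Phospholipids that reach the lysosome are cut by phospholipases into lysophospholipids, which have lost one fatty acyl chain. Spns1 is known to carry lysophosphatidylcholine and lysophosphatidylethanolamine out of the lysosome, after which acyltransferases rebuild them into membrane phospholipids. The proximal tubule takes up large amounts of membrane by megalin-dependent endocytosis and so sends much lipid to its lysosomes.

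The floxed allele loses exon 3 of Spns1, and this exon is shown because it is the stretch that separates the deleted allele from the intact one. In the principal GENCODE M21 transcript of GRCm38 it lies at chr7:126375067-126375203 on the minus strand, is 137 bases long and is coding throughout. It makes up 6.17% of the transcript and 8.65% of the coding sequence. Of 13 annotated Spns1 transcripts, 8 hold this exon exactly. In the lines below, read in the sense of the gene, capitals mark exon 3 in the intact transcript and the start of exon 4 in the transcript joined from exon 2 to exon 4.
intact, exon 2 end to exon 4 start: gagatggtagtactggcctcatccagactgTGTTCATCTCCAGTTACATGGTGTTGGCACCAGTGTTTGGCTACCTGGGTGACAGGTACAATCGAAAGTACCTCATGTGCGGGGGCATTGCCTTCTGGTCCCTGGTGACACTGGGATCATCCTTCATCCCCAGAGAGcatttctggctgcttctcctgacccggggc
joined, exon 2 end to exon 4 start: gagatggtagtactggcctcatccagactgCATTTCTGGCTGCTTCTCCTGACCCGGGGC
Dividing the exon's length by 3 leaves a remainder of 2, so the joined transcript changes frame. Its reading frame keeps 102 codons before the join and ends 123 codons after it, against 528 codons in the intact transcript. A deposited count covers all exons of a gene, so a count of Spns1 does not measure exon 3.

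The summed counts of a library lay between 25986133 and 29981814 in FeO, between 23068023 and 37362311 in WT and between 31809135 and 71296474 in Spns1 KO. Over all genes tested, 2 libraries correlated best with a library of another group. These were Spns1 KO 4, whose closest library was WT 2 (Pearson r = 0.974), and FeO 4, whose closest was Spns1 KO 3 (r = 0.961). The slope of log2 CPM (counts scaled to the library size with edgeR's TMM factors) on log2 transcript length also differed between groups. It lay between -0.193 and -0.0921 in FeO, between -0.131 and 0.0332 in Spns1 KO and between 0.0679 and 0.299 in WT, so the WT libraries held relatively more signal from long transcripts. The labelled cell type, proximal tubule, was checked with 14 marker genes such as Lrp2 and Slc34a1. Their summed level was 2453 to 10447 CPM in FeO, 4886 to 6922 CPM in WT and 13051 to 13997 CPM in Spns1 KO. No marker of any of 8 kidney and blood cell types was at 0, so markers of cells outside the proximal tubule were also present.

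Relative to WT, 2 of the 10 genes rose in Spns1 KO, Spns2 and Spns3, and none fell. In FeO 6 rose, namely Spns2, Pla2g15, Lpcat1, Lpcat3, Lpcat4 and Gde1, and Lpgat1 fell. A gene was called when its adjusted p was under 0.05 (edgeR quasi-likelihood test, Benjamini-Hochberg over all genes tested) and its log2 fold change lay beyond 0.5 in either direction. Among all genes tested 14.0% were called higher and 7.55% lower in Spns1 KO, against 22.4% and 19.7% in FeO. The 2 of 10 genes called higher in Spns1 KO are therefore close to the background, whereas the 6 of 10 in FeO stand above it, as a description of these genes with no test. The genes were chosen with earlier results of these data known, so that surplus cannot be told apart from the choice. With replicate number as a block and the trend of counts on transcript length and GC content removed, 3 rose in FeO. The median log2 fold change of the 10 genes was 0.63 in FeO, beside -0.011 over all genes, and 0.05 in Spns1 KO, beside -0.045. Leaving out Spns1 KO 4 and FeO 4 together was tried after the data were seen. Then 3 genes rose in Spns1 KO, and 7 rose and 0 fell in FeO by the same edgeR test. In Spns1 KO 0 of the 10 genes fell by DESeq2 either, and at an unadjusted edgeR p under 0.05 3 were higher and 0 lower. For these further settings, tests and limits the shares of all genes are not given here, so those above are no background for them. Spns1 KO and FeO were set against the same WT libraries, so the 2 comparisons are not independent.

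**Figure D1:**
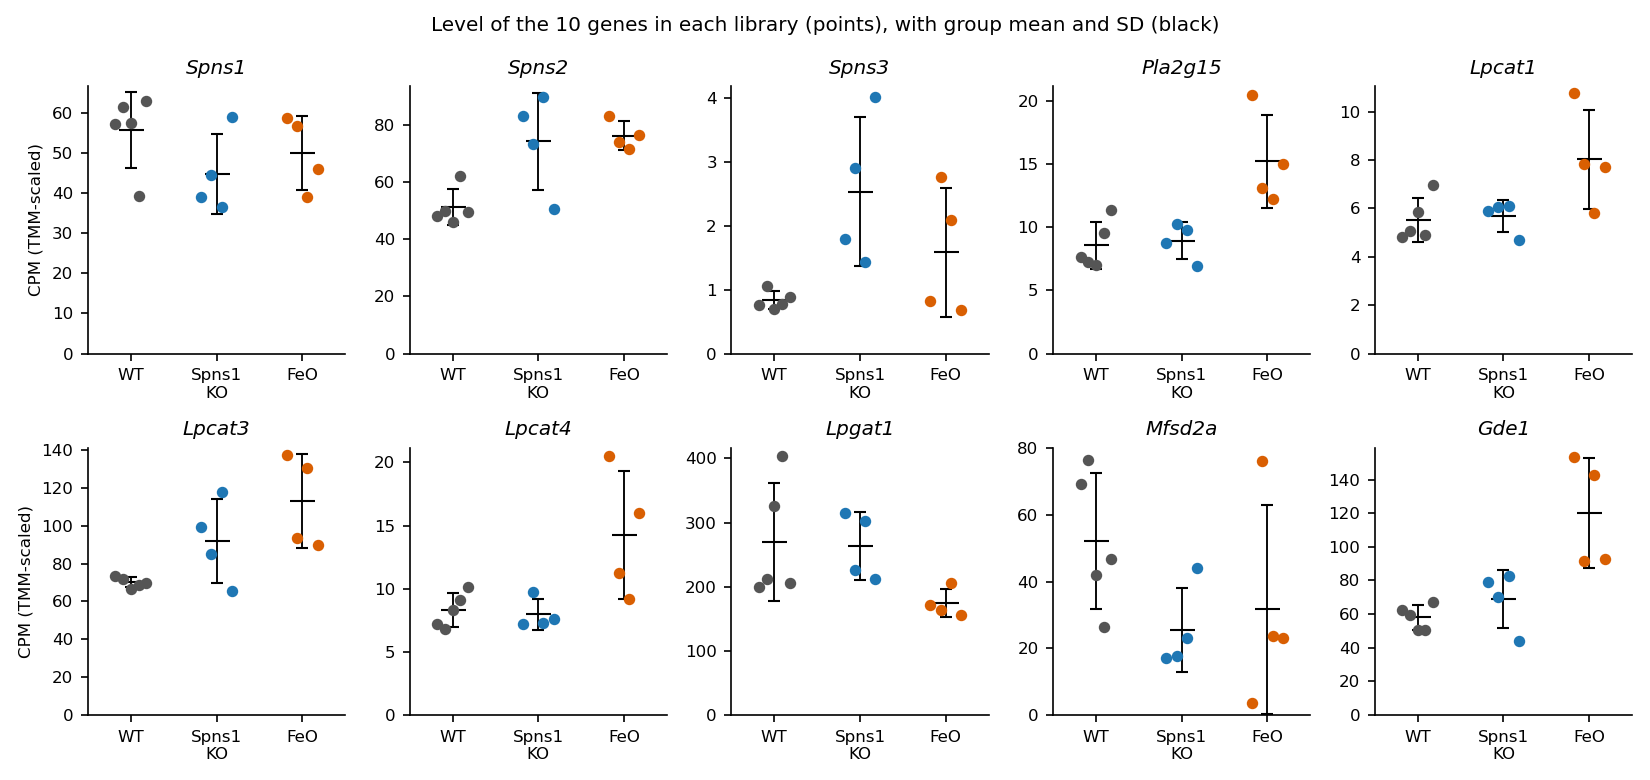
CPM (y axis, from 0) of each of the 10 genes in every WT, Spns1 KO and FeO library (points), with the group mean and SD in black. Spns2, Pla2g15, Lpcat3 and Gde1 lie above every WT library in all 4 FeO libraries, whereas the Spns1 points of the 3 groups overlap.

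Spns1, the targeted gene, lies on chromosome 7 from 126370060 to 126377450 (GRCm38). WT 1 to 5 held 57.2, 61.4, 57.6, 39.2 and 62.9 CPM of it. The libraries labelled Spns1 KO 1 to 4 held 39.0, 44.5, 36.6 and 59.0 CPM, and FeO 1 to 4 held 58.7, 56.7, 39.0 and 46.0 CPM. The groups overlapped, with the library labelled Spns1 KO 4 inside the WT range and WT 4 at the level of the library labelled Spns1 KO 1. The log2 fold change in Spns1 KO was -0.31 (standard error 0.18, adjusted p = 0.225 from edgeR), so the gene's count did not check the labels. In FeO it was -0.15 (standard error 0.18, adjusted p = 0.51 from edgeR). After each library's trend of counts on the length and GC content of transcripts was taken out as a spline, the log2 fold change in Spns1 KO was -0.52 and passed the limits (adjusted p = 0.031 from edgeR). With replicate number as a block in addition it was -0.51 and did not pass (adjusted p = 0.101 from edgeR). It passed in no other alternative that was run. As these are bulk samples, fewer cells of a type and less RNA per cell cannot be told apart, here and for every gene that follows.

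Spns2 encodes the plasma membrane exporter of sphingosine 1-phosphate and lies on chromosome 11 from 72451638 to 72489904, a short way from Spns3. It measured 48.2, 50.1, 46.0, 62.1 and 49.5 CPM in WT 1 to 5. It measured 83.3, 73.3, 89.7 and 50.7 CPM in Spns1 KO 1 to 4, and 83.2, 74.2, 71.5 and 76.5 CPM in FeO 1 to 4. All 4 FeO libraries and 3 of the 4 Spns1 KO libraries were above every WT library, and the library labelled Spns1 KO 4 was inside the WT range. Spns2 rose by 0.54 on the log2 scale in Spns1 KO (standard error 0.16, adjusted p = 0.0251 from edgeR) and by 0.58 in FeO (standard error 0.16, adjusted p = 0.00941 from edgeR). Between the 2 models Spns2 differed by -0.04 (standard error 0.17, adjusted p = 0.891 from edgeR). In Spns1 KO this call was lost when Spns1 KO 1, 2 or 3 or WT 1, 2 or 3 was left out and with the length and GC trend removed (log2 fold change 0.46, adjusted p = 0.0765 from edgeR). The FeO call held in both of those settings. The Spns2 gene overlaps Mybbp1a on the opposite strand, and the strand setting of the counting was not given in the sources used here, so 2.66% of its 31-base sequences could be assigned to either gene.

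Spns3, a little studied family member on chromosome 11 from 72494919 to 72550506, was the lowest of the 10 genes, with 18 to 170 estimated counts per library. Its level was 0.762, 1.05, 0.693, 0.777 and 0.888 CPM in WT 1 to 5. Spns1 KO 1 to 4 had 1.79, 2.89, 1.44 and 4.01 CPM, and FeO 1 to 4 had 0.820, 2.76, 2.09 and 0.675 CPM. Every library labelled Spns1 KO was above every WT library, whereas the FeO libraries split, with FeO 1 inside the WT range, FeO 4 under it and FeO 2 and 3 above it. Spns3 rose by 1.60 on the log2 scale in Spns1 KO (standard error 0.41, adjusted p = 0.0119 from edgeR), a call that held when any library was left out (1.29 to 1.79). In FeO the log2 fold change was 0.93 (standard error 0.42, adjusted p = 0.0792 from edgeR) and did not pass.

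Levels between genes were compared as CPM per kilobase of the principal transcript. On this scale Spns1 made up 47.5% to 64.3% of the summed Spinster family level in WT, 43.2% to 51.3% in FeO and 36.8% to 60.2% in Spns1 KO. Spns3 made up at most 1.15% in WT and 4.37% in Spns1 KO. The ratio of Spns2 to Spns1 was between 0.539 and 0.577 in 4 WT libraries and 1.08 in WT 4. It was 1.46, 1.13 and 1.68 in the libraries labelled Spns1 KO 1 to 3 and 0.589 in the library labelled Spns1 KO 4, while the 4 FeO libraries ran from 0.896 to 1.26. The summed proximal tubule markers, which do not measure genotype, were 6304 CPM in WT 4 and 13668 CPM in the library labelled Spns1 KO 4. Each value was inside the range of the labelled group. Over all genes tested the library labelled Spns1 KO 4 correlated best with WT 2 (Pearson r = 0.974) and WT 4 with WT 3 (r = 0.984). Whether the labels hold was not tested. Over the 13 libraries log2 CPM of Spns1 and Spns2 had a Pearson r of -0.66, given as a description, since the points share their groups.

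**Figure D2:**
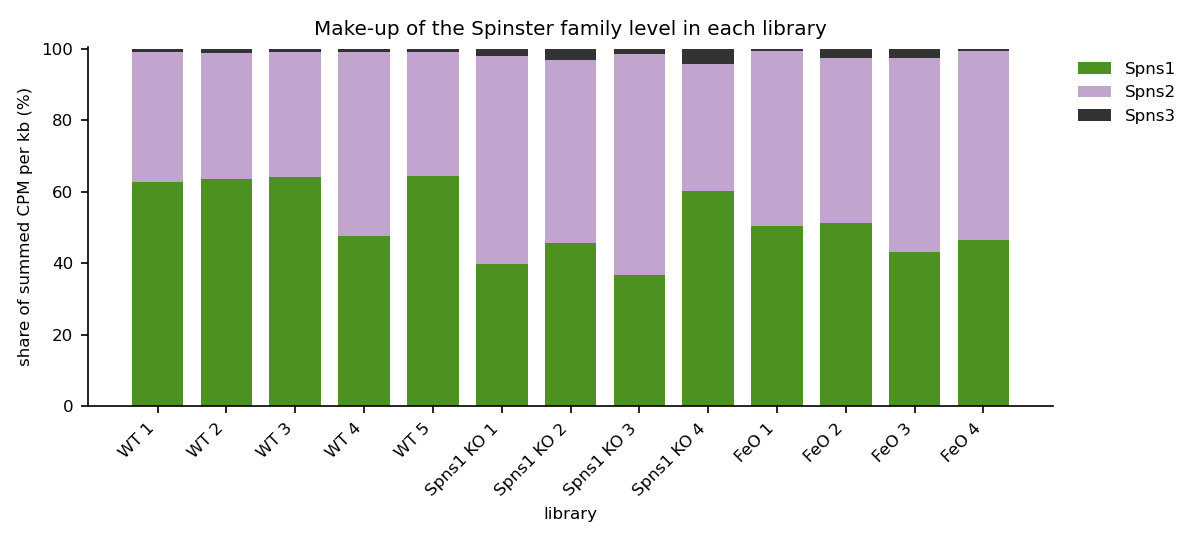
Percent of the summed CPM per kilobase of Spns1, Spns2 and Spns3 (stacked bars) in each of the 13 libraries. Spns1 holds 62.8% to 64.3% in 4 WT libraries, against 47.5% in WT 4 and 60.2% in the library labelled Spns1 KO 4.

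Pla2g15 encodes the lysosomal phospholipase A2 that cuts acyl chains from phospholipids at acid pH, the step before export by Spns1. It lies on chromosome 8 from 106150399 to 106164715. Its level was 7.62, 7.27, 6.96, 9.54 and 11.3 CPM in WT 1 to 5. Spns1 KO 1 to 4 had 8.72, 10.2, 9.75 and 6.94 CPM. In FeO 1 to 4 it was 20.5, 13.1, 12.2 and 15.0 CPM, above every WT library. Pla2g15 rose by 0.83 on the log2 scale in FeO (standard error 0.20, adjusted p = 0.00453 from edgeR). This call held under every alternative that was run, with log2 fold changes of 0.67 to 0.97. In Spns1 KO its log2 fold change was 0.06 (standard error 0.20, adjusted p = 0.847 from edgeR), with overlapping groups.

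The acyltransferase genes of the Lpcat family encode enzymes that put an acyl chain back on lysophosphatidylcholine and related lipids. Lpcat3, which favours polyunsaturated chains, lies on chromosome 6 from 124663027 to 124704418. It measured 73.3, 71.7, 66.5, 68.8 and 69.6 CPM in WT 1 to 5, the narrowest group of the data on these genes, with a coefficient of variation of 3.77%. It measured 99.1, 84.8, 118 and 65.4 CPM in Spns1 KO 1 to 4, and 138, 93.4, 131 and 90.1 CPM in FeO 1 to 4. Every FeO library was above WT, as were Spns1 KO 1 to 3, whereas the library labelled Spns1 KO 4 was under every WT library. Lpcat3 rose by 0.69 on the log2 scale in FeO (standard error 0.18, adjusted p = 0.00598 from edgeR). In Spns1 KO its log2 fold change was 0.39 (standard error 0.18, adjusted p = 0.12 from edgeR), and leaving out Spns1 KO 4 moved it to 0.52, past the limits (adjusted p = 0.0232 from edgeR). The gene overlaps Emg1 on the opposite strand, which shares 9.10% of its 31-base sequences.

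Lpcat4, which also acts on lysophosphatidylethanolamine, lies on chromosome 2 from 112239468 to 112247111. WT 1 to 5 had 7.24, 6.84, 8.35, 9.08 and 10.2 CPM, Spns1 KO 1 to 4 had 7.18, 9.77, 7.31 and 7.57 CPM, and FeO 1 to 4 had 20.5, 11.3, 9.15 and 16.0 CPM. FeO 3 was inside the WT range and the other three FeO libraries were above it. Lpcat4 rose by 0.77 on the log2 scale in FeO (standard error 0.22, adjusted p = 0.0113 from edgeR), and without FeO 1 the value was 0.56 and did not pass (adjusted p = 0.0516 from edgeR). In Spns1 KO it was -0.07 (standard error 0.22, adjusted p = 0.851 from edgeR).

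Lpcat1, known for making the dipalmitoyl phosphatidylcholine of lung surfactant, lies on chromosome 13 from 73467197 to 73516422. WT 1 to 5 had 4.82, 5.08, 5.86, 4.91 and 6.95 CPM, Spns1 KO 1 to 4 had 5.90, 6.06, 6.08 and 4.67 CPM, and FeO 1 to 4 had 10.8, 7.85, 5.80 and 7.72 CPM. It rose by 0.54 on the log2 scale in FeO (standard error 0.20, adjusted p = 0.0365 from edgeR), with FeO 3 inside the WT range. This call was lost without FeO 1 (0.38, adjusted p = 0.131 from edgeR) and when WT 1, 2, 3 or 4 was left out. In Spns1 KO it was 0.04 (standard error 0.20, adjusted p = 0.899 from edgeR).

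Lpgat1, named as a lysophosphatidylglycerol acyltransferase, lies on chromosome 1 from 191717834 to 191784255 and has the longest transcript of the 10 genes, 7233 bases. Its level was 199, 213, 326, 404 and 206 CPM in WT 1 to 5. Spns1 KO 1 to 4 had 315, 226, 302 and 211 CPM. FeO 1 to 4 had 171, 163, 205 and 156 CPM, and of these FeO 3 was inside the WT range. WT 3 and WT 4 were far above the other WT libraries and were also those with the steepest length slopes, 0.253 and 0.299. Lpgat1 fell by 0.63 on the log2 scale in FeO (standard error 0.23, adjusted p = 0.0332 from edgeR), and in Spns1 KO the log2 fold change was -0.03 (standard error 0.22, adjusted p = 0.926 from edgeR). After removal of that length and GC trend FeO had a log2 fold change of -0.03 (adjusted p = 0.903 from edgeR). The call was also lost without WT 3, WT 4, FeO 1, FeO 2 or FeO 4, where it ran from -0.61 to -0.42.

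**Figure D3:**
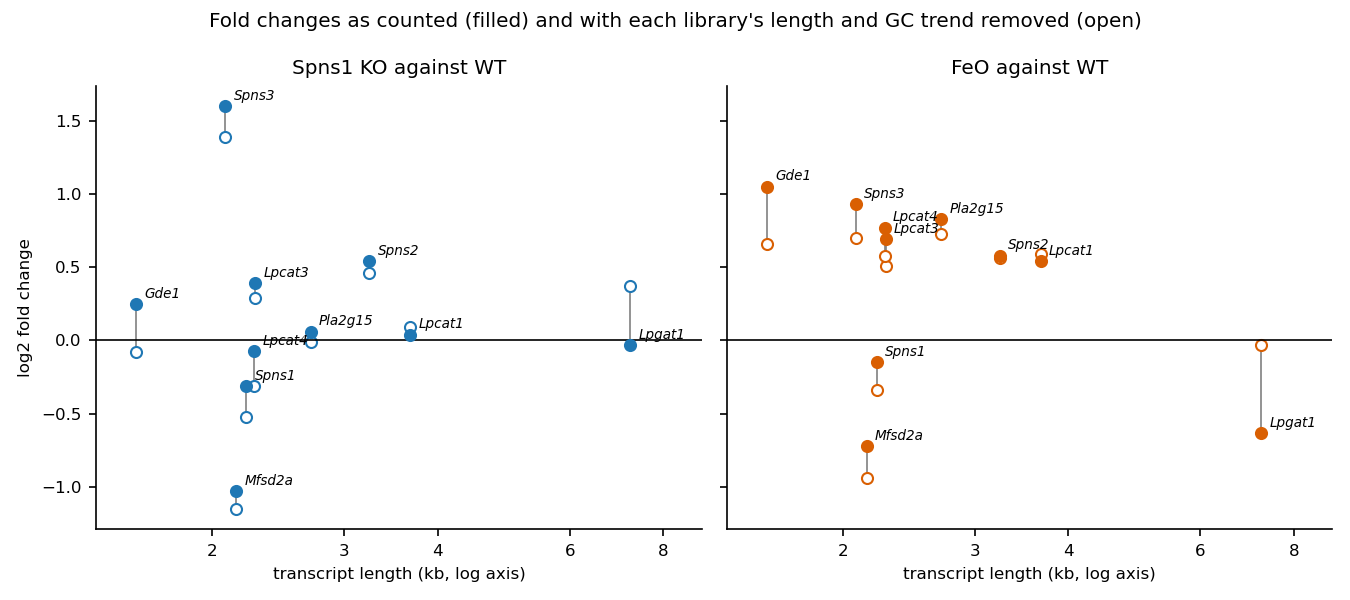
Log2 fold change against WT (y axis) by length of the principal transcript in kb (log x axis) for the 10 genes, as counted (filled) and with each library's length and GC trend removed (open), in Spns1 KO (left) and FeO (right). In FeO the value of Lpgat1 moves from -0.63 to -0.03, whereas Gde1, the shortest transcript, moves from 1.05 to 0.66.

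Gde1 encodes a membrane glycerophosphodiester phosphodiesterase, which acts on the glycerophosphodiesters left once both acyl chains are gone, and lies on chromosome 7 from 118688545 to 118705778. It measured 62.6, 59.4, 50.7, 50.8 and 67.1 CPM in WT 1 to 5. Spns1 KO 1 to 4 had 79.1, 70.4, 82.6 and 44.3 CPM. In FeO 1 to 4 it measured 154, 91.3, 143 and 92.9 CPM, all above WT. Gde1 rose by 1.05 on the log2 scale in FeO (standard error 0.20, adjusted p = 0.00124 from edgeR), the largest called rise of the 10 genes there, and held under every alternative that was run (0.63 to 1.18). In Spns1 KO the value was 0.25 (standard error 0.20, adjusted p = 0.388 from edgeR), with the library labelled Spns1 KO 4 under every WT library. Of the 31-base sequences of Gde1 11.6% also occur in other genes, most often in Gm45236, which overlaps it on the opposite strand. This is a share of sequence and not of reads, and how many of its counts it touches is not known.

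Mfsd2a encodes the sodium-dependent transporter that takes up lysophosphatidylcholine at the plasma membrane and lies on chromosome 4 from 122946850 to 122961188. It measured 69.3, 76.4, 42.0, 26.5 and 46.8 CPM in WT 1 to 5. Spns1 KO 1 to 4 had 17.1, 17.8, 23.2 and 44.0 CPM. In FeO 1 to 4 it measured 3.54, 76.3, 23.7 and 23.0 CPM, a 21.6-fold span within the group. The libraries labelled Spns1 KO 1 to 3 were under every WT library. The log2 fold change in Spns1 KO was -1.03 (standard error 0.57, adjusted p = 0.203 from edgeR), and with only these 2 groups in the fit it was -1.01 and passed (adjusted p = 0.0443 from edgeR). In FeO it was -0.72 (standard error 0.57, adjusted p = 0.311 from edgeR), and without FeO 2 it was -1.63 and passed (adjusted p = 0.0211 from edgeR). Neither fold change passed in any other alternative that was run.

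**Figure D4:**
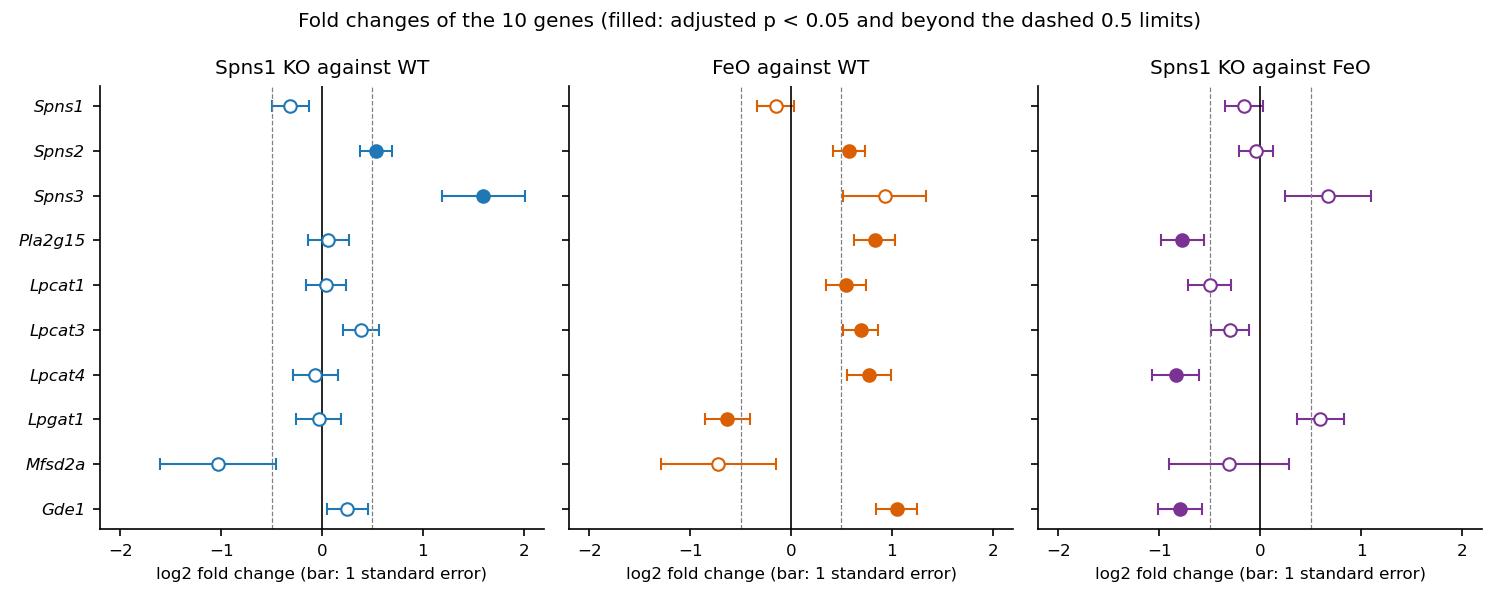
Log2 fold change (x axis) with 1 standard error for each of the 10 genes in Spns1 KO against WT, FeO against WT and Spns1 KO against FeO. Filled points passed the adjusted p and the 0.5 limits: 2 in Spns1 KO, 7 in FeO and 3 in the direct comparison.

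Whether the 2 models differed was tested directly in the same fit. Pla2g15, Lpcat4 and Gde1 were lower in Spns1 KO than in FeO, and none of the 10 genes was called higher by edgeR or DESeq2, with 1 higher and 4 lower at an unadjusted edgeR p under 0.05. Over all genes tested 8.10% were called lower and 6.76% higher in this comparison by edgeR at the adjusted limit. The shares by DESeq2 or at the unadjusted limit are not given here. The log2 difference was -0.77 for Pla2g15 (standard error 0.21, adjusted p = 0.0275 from edgeR), -0.84 for Lpcat4 (standard error 0.24, adjusted p = 0.0283 from edgeR) and -0.80 for Gde1 (standard error 0.22, adjusted p = 0.0251 from edgeR). For Pla2g15 and Gde1 every FeO library was above every Spns1 KO library, and for Lpcat4 FeO 3 was lower than Spns1 KO 2. For the other seven genes no difference between the models was called, which does not show that they moved alike. All 3 calls were lost without FeO 1, without Spns1 KO 4, and when only these 2 groups entered the fit. Without FeO 1 the log2 differences were -0.59, -0.60 and -0.66, and without Spns1 KO 4 they were -0.67, -0.81 and -0.63, in the order Pla2g15, Lpcat4 and Gde1.

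FeO 1 had the highest level of Pla2g15, Lpcat1, Lpcat3, Lpcat4 and Gde1 in the data and the lowest of Mfsd2a. It also had the lowest summed level of the 14 proximal tubule markers, 2453 CPM, and the highest of the 6 collecting duct markers, 1101 CPM, and of the 5 podocyte markers, 651 CPM. Among collecting duct markers 5 of 6 were called higher in FeO than in WT, with sums of 271 to 485 CPM in WT and 441 to 1101 CPM in FeO, and 3 of 5 podocyte markers were. Of all genes tested 22.4% were called higher in FeO. Of the 14 proximal tubule markers 2 were called higher there and 2 lower. The part of other cell types in the FeO values was not tested. In FeO 2 the summed proximal tubule level was 6056 CPM and that of the collecting duct markers 441 CPM, both inside the WT range. In that library Spns2, Pla2g15, Lpcat3, Lpcat4 and Gde1 were above every WT library, at 74.2, 13.1, 93.4, 11.3 and 91.3 CPM. Its podocyte sum, 362 CPM, and its leukocyte sum, 70.5 CPM, were above the WT ranges of 164 to 294 CPM and 49.1 to 56.8 CPM.

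The order of the levels was set by CPM per kilobase. In WT the highest were Lpgat1 at 37.3 ± 12.7, Gde1 at 36.7 ± 4.59 and Lpcat3 at 30.7 ± 1.16 (SD, n = 5). Spns1 followed at 25.1 ± 4.28, Mfsd2a at 24.3 ± 9.50 and Spns2 at 15.8 ± 1.95. Lpcat4 (3.66 ± 0.593), Pla2g15 (3.16 ± 0.682), Lpcat1 (1.50 ± 0.244) and Spns3 (0.401 ± 0.0666) were far lower. Neighbours in this order had overlapping ranges, except Lpcat3 and Spns1, Spns2 and Lpcat4, Pla2g15 and Lpcat1, and Lpcat1 and Spns3. In FeO Gde1 came at the top with 75.9 ± 20.7 and Lpcat3 next with 49.5 ± 10.8 (SD, n = 4), while Lpgat1 had 24.1 ± 3.00 and overlapped with Spns2 at 23.5 ± 1.54. In Spns1 KO the mean of Spns2, 22.9 ± 5.28, stood above that of Spns1, 20.2 ± 4.51, with overlapping ranges.

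Genes whose log2 CPM followed these transporters most closely over the 13 libraries were listed from 12207 candidates, as a description that also carries the group differences and the length trend. For Spns2 they were Tdrkh (Pearson r = 0.968), Afg1l (0.958), Pmpca (0.958), Mtfp1 (0.951) and Pink1 (0.948). For Spns1 they were Cbarp (0.930), Hnrnpl (0.927), Slc25a29 (0.909), Ppp1r3f (0.906) and Mms19 (0.903). Among pairs of the 10 genes the closest were Lpcat3 and Gde1 (r = 0.929), Pla2g15 and Lpcat4 (0.910) and Pla2g15 and Lpcat1 (0.895).

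Promoter windows of 250 bases before to 50 after the start site (RefSeq, GRCm38.p6) were found for 9 of the 10 genes, all but Spns3. The Spns2 window, 72474978 to 72475277, lies inside the gene as given above, away from its upstream end. The Spns1 window, 126377885 to 126378184, lies wholly outside the gene as given above. The upstream ends of those 2 loci were therefore not searched. None of their 10 windows held the letters CACGTG, the E-box read by TFEB and related factors, or the longer TCACGTGA, searched on both strands. Of all 32851 windows 7.15% held the shorter motif, within which the longer one, held by 0.974%, is counted too.

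Of 86 further genes of lysophospholipid and phospholipid handling, in 5 lists, 83 were tested. In Spns1 KO 14 were higher (16.9%) and 7 lower (8.43%) than WT, close to the 14.0% and 7.55% of all genes tested. In FeO 27 were higher (32.5%) and 5 lower (6.02%), beside 22.4% and 19.7% of all genes. Their median log2 fold change was 0.25 in FeO, beside -0.011 over all genes, and 0.11 in Spns1 KO, beside -0.045. These shares and those that follow are descriptions with no test, of lists chosen with earlier results of these data known. Lysosomal lipid handling had the highest median in each model, 0.72 in Spns1 KO and 0.51 in FeO.

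**Figure D5:**
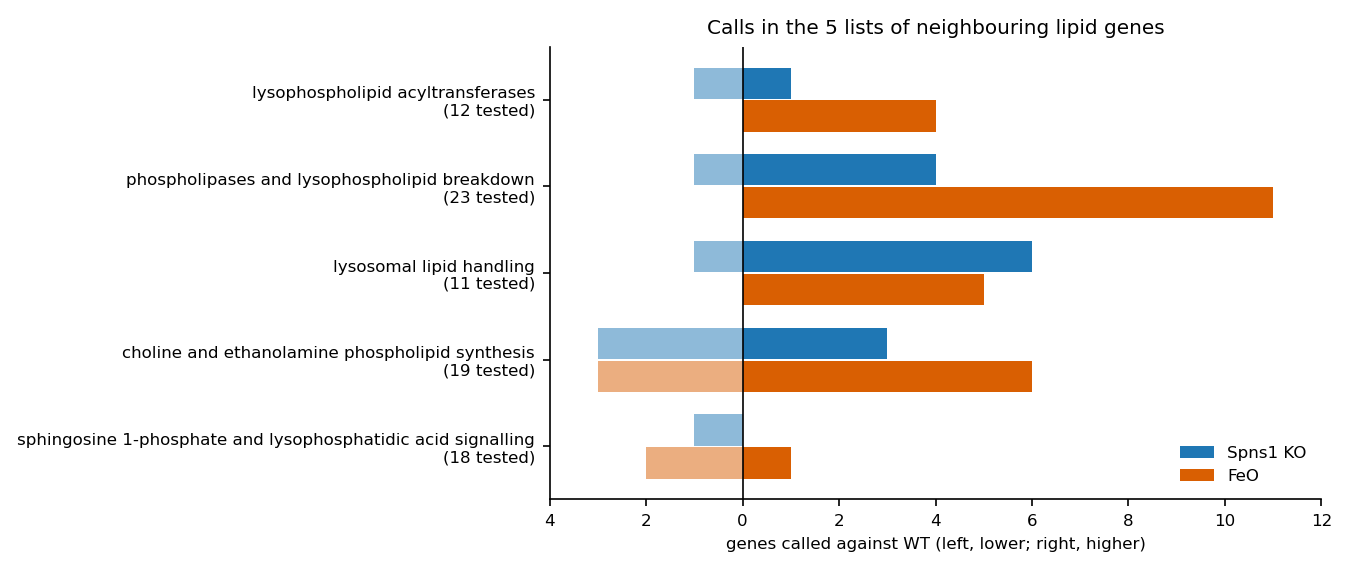
Number of genes called higher (right) and lower (left, pale) than WT in Spns1 KO (blue) and FeO (orange) for each of 5 gene lists, with the number tested. The list of phospholipases and lysophospholipid breakdown holds 11 genes called higher and 0 lower in FeO, against 4 and 1 in Spns1 KO.

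Among 11 genes of lysosomal lipid handling, 6 rose (54.5%) and 1 fell (9.09%) in Spns1 KO and 5 rose (45.5%) in FeO, beside 14.0%, 7.55% and 22.4% of all genes tested. Cell type markers differed between the groups too. Proximal tubule markers summed to 13051 to 13997 CPM in Spns1 KO, against 4886 to 6922 CPM in WT, with 9 of 14 called higher. The summed level of 6 leukocyte markers was 66.2 to 76.1 CPM in Spns1 KO and 70.5 to 94.7 CPM in FeO, above the WT range of 49.1 to 56.8 CPM. Of these leukocyte markers 0 were called higher in Spns1 KO and 2 in FeO. The sum of 6 fibroblast and mural markers, of which 3 were called higher in Spns1 KO and 1 in FeO, was 135 to 186 CPM in Spns1 KO. It was 76.7 to 168 CPM in FeO, overlapping the WT range of 82.1 to 112 CPM. The part of any of these cell types in the result was not tested. Pld3, a lysosomal exonuclease that belongs to the phospholipase D family, averaged 18.1 ± 2.07 CPM in the WT libraries (SD, n = 5), 40.1 ± 11.2 in FeO and 29.7 ± 6.32 in Spns1 KO (SD, n = 4 each). It rose by 0.72 on the log2 scale in Spns1 KO and 1.15 in FeO (adjusted p = 0.0151 and 0.000617 from edgeR). Plbd1, a lysosomal phospholipase B-like protein, rose by 1.18 on the log2 scale in Spns1 KO (adjusted p = 0.00313 from edgeR), from 2.83 ± 0.452 CPM in WT to 6.42 ± 1.11. Lipa, the lysosomal acid lipase, rose by 1.07 in Spns1 KO (adjusted p = 0.0425 from edgeR), with a wide range of 104 to 501 CPM. Smpd1, acid sphingomyelinase, rose by 0.94 in FeO (adjusted p = 0.0047 from edgeR). Npc1, a lysosomal cholesterol transporter singled out after its values were seen, was the gene that fell in Spns1 KO, by 0.69 on the log2 scale (adjusted p = 0.00317 from edgeR). The others that rose were Pld4, Psap and Npc2 in Spns1 KO and Cln3, Psap and Npc2 in FeO.

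Of 23 phospholipases and lysophospholipid-degrading enzymes, 4 rose (17.4%) and 1 fell (4.35%) in Spns1 KO, near the shares of all genes, and 11 rose (47.8%) in FeO, where 22.4% of all genes did. Enpp6, a choline-specific glycerophosphodiesterase that acts on lysophosphatidylcholine, averaged 130 ± 18.1 CPM in Spns1 KO, against 59.5 ± 11.6 in WT and 41.7 ± 20.1 in FeO. It rose by 1.13 on the log2 scale in Spns1 KO (adjusted p = 0.00842 from edgeR) and was -0.52 in FeO (adjusted p = 0.132 from edgeR), and the models differed by 1.64 (adjusted p = 0.00428 from edgeR). Tmem86a, a lysoplasmalogenase, differed in the opposite direction: it rose by 1.17 on the log2 scale in FeO (adjusted p = 0.000709 from edgeR), was -0.32 in Spns1 KO (adjusted p = 0.275 from edgeR) and differed by -1.49 (adjusted p = 0.00205 from edgeR). Pla2g7, which degrades platelet-activating factor, rose in both, by 1.03 and 1.23 on the log2 scale (adjusted p = 0.0188 and 0.00365 from edgeR). Gpcpd1, a glycerophosphocholine phosphodiesterase singled out after its values were seen, was the gene that fell in Spns1 KO, by 0.54 on the log2 scale (adjusted p = 0.0129 from edgeR), and Lyplal1 and Tmem86b were the others that rose there.

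The further acyltransferases, 12 genes, held 1 rise and 1 fall (8.33% each) in Spns1 KO, beside 14.0% and 7.55% of all genes tested. In FeO they held 4 rises (33.3%) and 0 falls, beside 22.4% and 19.7% of all genes. Agpat1, which turns lysophosphatidic acid into phosphatidic acid, rose in Spns1 KO by 0.66 and in FeO by 0.89 on the log2 scale (adjusted p = 0.028 and 0.00282 from edgeR). Its relative Agpat2 rose by 1.39 in FeO (adjusted p = 0.003 from edgeR) and was -0.01 in Spns1 KO (adjusted p = 0.984 from edgeR). Mboat2 fell by 0.95 on the log2 scale in Spns1 KO (adjusted p = 0.00709 from edgeR), where all 4 libraries lay between 15.1 and 16.8 CPM, against 24.1 to 46.7 CPM in WT. The other rises in FeO were those of Lpcat2 and Agpat5.

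Among 19 tested genes of choline and ethanolamine phospholipid synthesis, 3 rose and 3 fell (15.8% each) in Spns1 KO, and 6 rose (31.6%) and 3 fell (15.8%) in FeO. Of all genes tested, 14.0% rose and 7.55% fell in Spns1 KO, and 22.4% rose and 19.7% fell in FeO. Flvcr1, a choline importer, fell by 1.18 on the log2 scale in Spns1 KO and by 0.73 in FeO (adjusted p = 0.00284 and 0.018 from edgeR), from 123 ± 16.3 CPM in WT to 54.2 ± 22.9 and 74.0 ± 16.7. Chka, choline kinase alpha, fell by 0.83 on the log2 scale in Spns1 KO (adjusted p = 0.0181 from edgeR) and was -0.51 in FeO (adjusted p = 0.0787 from edgeR). Slc44a3, of the choline transporter-like family, rose by 1.35 in FeO (adjusted p = 0.00114 from edgeR), and Ptdss1, phosphatidylserine synthase, by 0.92 (adjusted p = 0.00653 from edgeR). The other calls were Pcyt2, Chpt1 and Slc44a4 (higher) and Etnk1 (lower) in Spns1 KO, and Cept1, Ptdss2, Slc44a2 and Slc44a4 (higher) and Pcyt1a and Etnk1 (lower) in FeO.

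The list of sphingosine 1-phosphate, which Spns2 exports, and of lysophosphatidic acid signalling had the fewest calls. Of 18 tested genes 0 rose and 1 fell (5.56%) in Spns1 KO, beside 14.0% and 7.55% of all genes tested. The gene that fell was the receptor gene Lpar4, with a mean of 22.4 counts. In FeO 1 rose (5.56%) and 2 fell (11.1%), Mfsd2b and the receptor gene S1pr2, beside 22.4% and 19.7% of all genes. Plpp2, a lipid phosphate phosphatase, rose by 1.03 on the log2 scale in FeO (adjusted p = 0.000806 from edgeR). Mfsd2b, the sphingosine 1-phosphate exporter of red cells and platelets, fell by 0.87 on the log2 scale in FeO (adjusted p = 0.00363 from edgeR) and was -0.49 in Spns1 KO (adjusted p = 0.0885 from edgeR). Its mean was 23.5 ± 5.08 CPM in FeO, against 42.9 ± 5.96 in WT and 30.6 ± 9.13 in Spns1 KO. All 4 red blood cell markers were called higher in Spns1 KO and 3 of 4 in FeO.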

How the data were processed

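Thiol-tagged, poly-A selected kidney RNA was sequenced in paired-end reads of 13 libraries (5 WT, 4 Spns1 KO, 4 FeO). The authors deposited one table of estimated counts, whole numbers without normalization, for 35013 gene symbols. The submitters' processing notes name bcl2fastq 2.19, kallisto 0.44.0, DESeq2 and GRCm38, whereas the methods describe STAR alignment to mm10 and HTSeq counting, so how reads shared by overlapping genes or transcripts were assigned is not settled.

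Counts were tested in R 4.3.3 with edgeR 4.0.16 (TMM factors, filterByExpr, quasi-likelihood test with group as the sole term, all 13 libraries in one fit, 10 residual degrees of freedom, Benjamini-Hochberg over 16468 genes). Total counts per library, 23068023 to 71296474, set the depth. The test was tried on simulated data drawn for Spns1 KO against WT over 16468 genes: it recovered 45% of 100 genes changed by a log2 of 1 and 86% of 100 changed by 2, with 7 false calls. The simulated libraries had no length or GC trend, unlike the real ones, so these figures do not give the rate of false calls in the data. Alternatives were other size factors, library totals alone, DESeq2 1.42.0, no filter, only the 2 groups compared, each library left out, the replicate number as a block, and a length and GC trend (spline with 5 degrees of freedom, 98.3% of tested genes) as an offset. Leaving out Spns1 KO 4 and FeO 4 together was added after the data were seen.

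The members and the lists were chosen with earlier results of these data known. Named from each list and model were up to 2 called genes with the largest change and a mean of at least 50 counts. Genes like Spns1 and Spns2 were the 5 of highest Pearson r with a mean of at least 100 counts (log2 CPM, prior count 2). Lengths, loci and the Spns1 sequences came from GENCODE M21, and promoters from RefSeq.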

Additional observations from a re-analysis of the deposited data

Results flagged for a closer look

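In 8 of the 78 groups of 4 or 5 libraries examined, 1 library stood apart from the rest of its group by Dixon's 95% criterion, which chance meets in about 1 of 20 groups. Spns1 in WT 4 was 39.2 CPM, against 57.2 to 62.9 CPM in the other WT libraries, and Spns2 in WT 4 was 62.1 CPM, against 46.0 to 50.1. Without WT 4 the log2 fold change of Spns1 in Spns1 KO was -0.40 and that of Spns2 was 0.63. Lpcat1 in the library labelled Spns1 KO 4 was 4.67 CPM, against 5.90 to 6.08 in the rest of its group, and Lpcat4 in Spns1 KO 2 was 9.77 CPM, against 7.18 to 7.57. Agpat2 was 32.5 CPM in WT 5, against 12.1 to 14.9 in the other WT libraries. Plbd1 was 8.08 CPM in Spns1 KO 3 (others 5.78 to 5.95), Flvcr1 was 88.2 CPM in Spns1 KO 4 (others 39.5 to 46.7) and Chka was 167 CPM in FeO 3 (others 244 to 248).

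The test of Spns1 KO against FeO called 3 of the 10 genes and, among the 83 tested list genes, 3 higher and 13 lower in Spns1 KO. Values are given for these 3 genes and for the 6 list genes that the naming rule had picked. The log2 difference was -0.77 for Pla2g15, -0.84 for Lpcat4 and -0.80 for Gde1. Among those list genes it was -0.87 for Mboat2, -1.40 for Agpat2, -1.49 for Tmem86a, -1.52 for Slc44a3 and -0.70 for Plpp2, all lower in Spns1 KO. Enpp6 was higher in Spns1 KO, by 1.64.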

How the results depend on the processing

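Of 660 recomputed fold changes of the 10 genes, 580 kept their direction and side of the limits, 49 fell below the limits, 8 rose past them and 23 changed sign. Calls of the 10 genes ranged, with each library left out in turn, from 1 to 3 higher and 0 to 0 lower in Spns1 KO, from 5 to 7 higher and 0 to 1 lower in FeO, and from 0 to 3 between the models. Calls in the 5 lists ranged from 8 to 19 higher and 4 to 10 lower in Spns1 KO and from 21 to 30 higher and 4 to 8 lower in FeO. In Spns1 KO 1 of the 10 genes was higher with library totals alone, with the replicate block or with the length and GC trend removed, and 0 with block and trend together, and 1 was lower with 2 groups fitted (Mfsd2a) or the trend removed (Spns1). In FeO 3 were higher with block and trend together, and 0 were lower without the filter, with the trend removed, with block and trend, or without Spns1 KO 4 and FeO 4. Between the models 0 differed with 2 groups fitted and 1 without Spns1 KO 4 and FeO 4. Of list genes in Spns1 KO, 8 were higher with the replicate block and 6 higher and 4 lower with block and trend. In FeO 3 were lower with the trend removed and 1 with block and trend. Shares of all genes in these settings are not given here. Whether the replicate numbers pair the libraries is not known, as the methods do not say which libraries share a litter. The correlation of same-numbered deviations from the group means ran from -0.296 to 0.256. Libraries of different number were not compared in this way, so that range cannot decide it. The block is given for that reason as a setting alone. The sign changes concerned values that were never called. In Spns1 KO, Pla2g15 was -0.08 with library totals, -0.01 with the trend removed and -0.01 without Spns1 KO 2. Lpcat1 was -0.10 with library totals and -0.01 without WT 1, and Lpcat4 was 0.02 with the block and 0.04 without WT 5. Lpgat1 was 0.03 without the filter, 0.37 with the trend removed, 0.33 with block and trend, 0.07 without Spns1 KO 4 and FeO 4, and 0.03 to 0.17 without Spns1 KO 2, Spns1 KO 4, WT 3 or WT 4 (0.06 for the second and the third). Gde1 was -0.08 with the trend removed and -0.10 with block and trend. Between the models, Spns2 was 0.11 without Spns1 KO 4, 0.01 without FeO 1 and 0.10 without Spns1 KO 4 and FeO 4, and Mfsd2a was 0.07 with the block, 0.14 with block and trend and 0.62 without FeO 2. With each library left out, these values in Spns1 KO reached at the other end 0.20 for Pla2g15, 0.16 for Lpcat1, -0.18 for Lpcat4 and -0.13 for Lpgat1, and between the models -0.14 for Spns2 and -0.71 for Mfsd2a. The causes were not tested. Depth limits Spns3 most, with 18 estimated counts in its lowest library.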

Other observations

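Mfsd2a varied more between libraries of a group than any other of the 10 genes, with a coefficient of variation of 98.7% in FeO, 49.4% in Spns1 KO and 39.2% in WT. The genes whose log2 CPM followed it most closely over the 13 libraries, picked after its values were seen, were Zcchc8 (Pearson r = 0.947), Nr1h4 (0.942), Cyp24a1 (0.932), Zfp58 (0.932) and Cmtr2 (0.919), from 12207 candidates. Nr1h4 encodes the bile acid receptor FXR, and Cyp24a1 the enzyme that inactivates vitamin D. The log2 fold change of Nr1h4 was -0.72 in Spns1 KO and -1.11 in FeO, and that of Cyp24a1 was -0.82 and -0.81. These values are a description with no test.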
